A study of Arabidopsis thaliana with 6 samples.

Results

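The genes described here belong to 3 Arabidopsis families that act at the cell surface, namely the RALF-like peptides (RALFL), the CLE peptides and the tetraspanins (TET). They were chosen by name, as every probe set that the array platform annotates to a single gene with a symbol of RALFL, CLE or TET followed by a number. That gave 32 genes, 11 RALFL, 6 CLE and 15 TET, out of 13513 single-gene probe sets, which name 13350 genes, and 22746 probe sets in all. The rule would have taken the brightest probe set of a gene by its mean over the 6 arrays, but each of the 32 genes had 1 probe set, so that step chose nothing. The families themselves were picked with earlier results of these data known. In the RefSeq gene table of TAIR10.1, 32 genes carry an RALFL symbol, 30 a CLE symbol and 16 a TET symbol, and those without such a probe set were not analysed here.

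RNA from whole 7-day-old seedlings of Arabidopsis thaliana Col-0 was hybridised to Affymetrix ATH1 arrays, with 2 biological replicates per group. The 3 groups were wild type (WT), plants stably transformed to express 35S:FLAG-SUB1A and plants stably transformed to express 35S:FLAG-SUB1C, labelled 35:SUB1A and 35:SUB1C. SUB1A and SUB1C are ethylene response factor (ERF) transcription factors of rice, known from the submergence tolerance locus, and the constitutive 35S promoter drives them in most tissues. All groups were stratified for 3 days. They grew untreated on agar with 1% sucrose at 23 °C under 16 h of light and 8 h of dark, and were collected at midday. The labels name no empty-vector line and do not say how many independent transgenic lines were used, so an effect of a transgene and another difference between lines cannot be told apart. The levels of the rice transgenes were not analysed here.

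RALF peptides are small, cysteine-rich peptides secreted into the cell wall. They are sensed by receptor kinases of the FERONIA and THESEUS1 family together with membrane-anchored co-receptors, and they are known for raising the pH of the wall space and for restraining cell growth. CLE peptides are cut from the end of short precursor proteins and sensed by leucine-rich repeat receptor kinases, through which they set the size of stem cell pools in shoot, root and vascular tissue. Tetraspanins are proteins that span the membrane several times and organise other proteins into patches. In plants they are known from plasmodesmata, from secreted vesicles and from the control of organ growth.

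Expression is given as the log2 value of a probe set after robust multi-array averaging (RMA). A change is the mean of 1 group minus that of another, given ± its standard error (SE) in a limma fit over all 6 arrays (n = 2 per group). A gene is said to have risen or fallen, or to be higher or lower in a line, only at an adjusted p under 0.05 from limma with Benjamini-Hochberg adjustment over all 22746 probe sets. Replicate arrays correlated at 0.998 to 0.999 over all probe sets, and arrays of different groups at 0.989 to 0.996. With so few arrays the precision of each value is limited.

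Mean levels over the 6 arrays ran from 4.48 to 11.60 in the RALFL family, from 4.34 to 9.43 among CLE genes and from 4.41 to 10.51 among TET genes. These are probe-set values, and an order of transcript abundance between genes cannot be read from them. The highest probe sets of the families were those of RALFL34, CLE41 and TET3, and the lowest those of RALFL25, CLE40 and TET16. The lowest value on any array was between 3.76 and 3.85. Of the 32 genes, 27 had a mean of at least 5 and 5 had a mean under 5, which was read as near background. These 5 were RALFL25, RALFL28, CLE40, TET13 and TET16, and none of them passed the test in any comparison. The arrays of a group lay close together, with a median distance between replicates of 0.07 and a largest distance of 0.30.

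Across the 3 comparisons, 9 of the 32 genes passed the test at least once, 4 of them RALFL, 0 CLE and 5 TET. The other 23 passed in none. RALFL27, RALFL22 and TET8 rose in both transgenic groups, RALFL34, TET3 and TET5 changed against WT in the SUB1A line, and TET12 changed against WT in the SUB1C line. RALFL24 and TET6 differed between the transgenic lines and passed in neither comparison with WT. Over all probe sets 20.2%, 4.71% and 12.1% passed in the SUB1A, SUB1C and between-line comparisons. The share of all probe sets that passed at least once, or rose in both lines, was not counted. The counts given here are therefore not read as a trait of the families. A gene that passed in 1 line and not in the other is not thereby shown to differ between the lines, which is the question of the direct comparison.

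**Figure D1:**
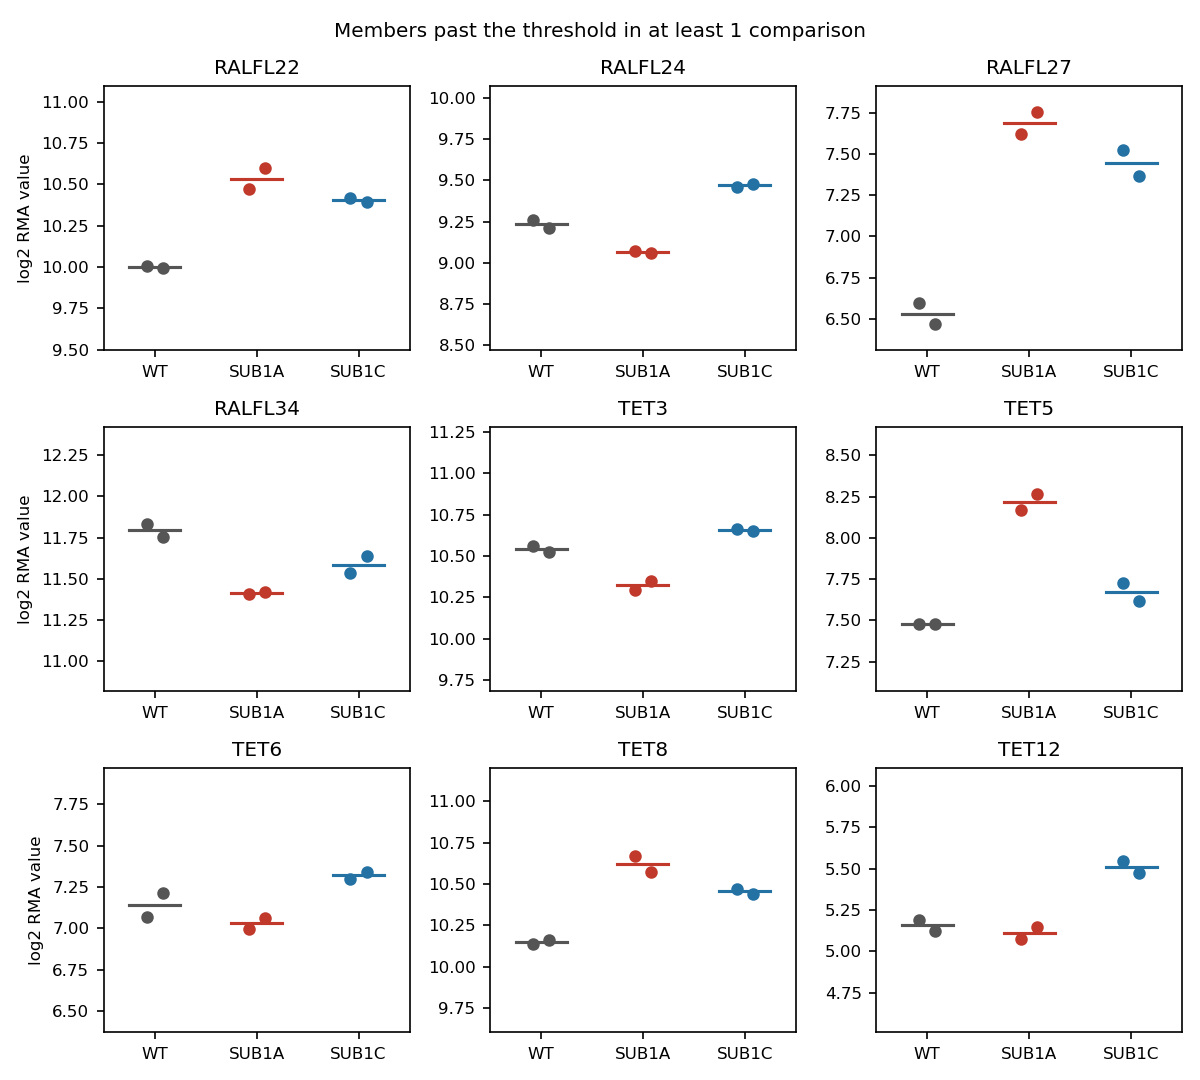
Log2 RMA value on each array (points) and group mean (bars) of the 9 genes that passed the test in at least 1 comparison, with the groups WT, SUB1A and SUB1C on the horizontal axis. Every panel spans the same range of log2 units, so distances can be compared between panels; RALFL27 shows the widest separation, with WT at 6.53 against 7.69 in SUB1A and 7.45 in SUB1C.

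Comparing SUB1A seedlings with WT asks which transcripts differ in untreated plants carrying that transgene. Here 6 of 32 genes passed, 4 higher and 2 lower, or 18.8% of the members. Over all probe sets 20.2% passed, 9.47% higher and 10.8% lower, so the share of members that passed was near the background. The median change of the 32 genes was 0.04, against 0.01 over all probe sets, and their median absolute change was 0.10, against 0.11 over all probe sets.

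Among the RALF-like peptide genes, 2 of 11 rose in the SUB1A line, 1 fell and 8 did not pass. RALFL27, which encodes a RALF-like precursor, read 6.60 and 6.47 on the WT arrays, 7.62 and 7.75 on the SUB1A arrays and 7.53 and 7.36 on the SUB1C arrays. All transgenic arrays lay above both WT arrays. Its rise in the SUB1A line was 1.15 ± 0.08, or 2.23-fold, with a limma adjusted p of 7.44e-05, and its size was at the percentile 99.1 of absolute changes over all probe sets. RALFL22, a peptide gene known from salt tolerance and cell wall integrity, read 10.01 and 9.99 in WT, 10.47 and 10.60 in SUB1A and 10.42 and 10.39 in SUB1C. Here too the WT arrays were the lowest. It rose by 0.53 ± 0.07 in the SUB1A line, 1.45-fold, with a limma adjusted p of 0.000988.

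RALFL34, a peptide gene known from lateral root initiation, went the other way. Its values were 11.83 and 11.76 in WT, 11.41 and 11.42 in SUB1A and 11.53 and 11.64 in SUB1C. Both SUB1A arrays lay below the SUB1C arrays, which lay below the WT arrays. RALFL34 fell by 0.38 ± 0.07 in the SUB1A line, with a limma adjusted p of 0.00497. The 8 RALFL genes that did not pass had changes between -0.17 (RALFL24) and 0.10 (RALFL18). RALFL33, known as a modulator of immune signalling, was among them at 0.04 ± 0.07.

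None of the 6 CLE genes passed in the SUB1A line. By limma 1 of the 6 had an unadjusted p under 0.05, namely CLE26, a gene known from root phloem, with a change of -0.18 ± 0.06 and an adjusted p of 0.0906. Over all probe sets 7427 of 22746 had an unadjusted p under 0.05, so 1 of 6 does not set the family apart. CLE41 and CLE44 encode the same mature peptide, TDIF, which keeps vascular stem cells from becoming xylem. CLE41 read 9.47 and 9.33 in WT, 9.47 and 9.49 in SUB1A and 9.40 and 9.40 in SUB1C. CLE44 read 8.06 and 7.81 in WT, 8.03 and 8.16 in SUB1A and 8.05 and 8.09 in SUB1C. The SUB1A and WT arrays overlapped for both genes, whose changes in the SUB1A line were 0.08 ± 0.07 and 0.16 ± 0.09. CLE40, which acts in the root stem cell niche, stayed between 4.28 and 4.39 on all arrays, near background. CLE21 and CLE27 changed by -0.13 ± 0.07 and -0.01 ± 0.07.

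Of the 15 tetraspanin genes 2 rose in the SUB1A line, 1 fell and 12 did not pass. TET5, which together with TET6 is known to restrict organ growth, read 7.48 and 7.48 in WT, 8.17 and 8.27 in SUB1A and 7.72 and 7.61 in SUB1C. The SUB1A arrays stood above all others. TET5 rose by 0.74 ± 0.07, 1.67-fold, with a limma adjusted p of 0.000257. TET6 read 7.07 and 7.22 in WT, 7.00 and 7.06 in SUB1A and 7.30 and 7.34 in SUB1C, and its change of -0.11 ± 0.07 in the SUB1A line did not pass.

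TET8, a marker of plant exosomes, read 10.14 and 10.16 in WT, 10.67 and 10.57 in SUB1A and 10.47 and 10.44 in SUB1C. The 3 groups did not overlap, with WT the lowest and SUB1A the highest. TET8 rose by 0.47 ± 0.06 in the SUB1A line with a limma adjusted p of 0.00144. TET9, also linked to secreted vesicles, changed by 0.23 ± 0.08 without passing (limma adjusted p = 0.0743), from 5.31 and 5.10 in WT to 5.46 and 5.42, and it passed without WT replicate 1, at 0.34 with an adjusted p of 0.0314. TET3, a tetraspanin found at plasmodesmata, read 10.56 and 10.52 in WT, 10.30 and 10.35 in SUB1A and 10.67 and 10.65 in SUB1C. The SUB1A arrays were the lowest and the SUB1C arrays the highest. TET3 fell by 0.22 ± 0.06 with a limma adjusted p of 0.0363. The call ended without any 1 of the WT or SUB1A arrays, with changes from -0.25 to -0.19. Leaving out a SUB1C array gave the same fit as the WT and SUB1A groups alone, where the call ended too (limma adjusted p = 0.0691). The 12 TET genes that did not pass had changes from -0.15 (TET7) to 0.23 (TET9).

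Comparing SUB1C seedlings with WT puts this question to the other transgene. Here 4 of 32 genes passed, all higher, or 12.5% of the members. Over all probe sets 4.71% passed, 2.84% higher and 1.87% lower. The count of 4 became 1 without any 1 of the WT or SUB1C arrays, the gene left in each case being RALFL27. The median change of the 32 genes was 0.11, against 0.00 over all probe sets. Of the 32 changes 26 were positive, beside 11007 of 22746 over all probe sets. Some of the 26 were small, such as those of CLE41 (0.00), TET4 (0.01) and CLE26 (0.02). These shares and medians describe families picked with results of these data known, and they were not tested. Both comparisons with WT use the same 2 WT arrays, so a high or low WT value moves both changes of a gene together.

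RALFL27 rose by 0.91 ± 0.08 in the SUB1C line, 1.88-fold, with a limma adjusted p of 0.00151. RALFL22 rose by 0.40 ± 0.07, 1.32-fold, with a limma adjusted p of 0.0139. These were 2 of 11 RALFL genes, and 9 did not pass. RALFL33 read 10.91 and 11.00 in WT and 11.17 and 11.21 in SUB1C, and RALFL24 read 9.26 and 9.21 in WT and 9.46 and 9.48 in SUB1C. Neither gene's SUB1C arrays overlapped with WT, but their changes of 0.24 ± 0.07 and 0.23 ± 0.06 had limma adjusted p of 0.0865 and 0.0661. In 8 of 11 RALFL genes both SUB1C arrays lay above both WT arrays, and in 1, RALFL34, both lay below. RALFL25 and RALFL28, among the 8, had means near background. For TET genes the counts were 8 of 15 above and 0 below, and for CLE genes 0 of 6 above and 1 below. Over all probe sets the shares were 24.5% above and 26.7% below. RALFL34 changed by -0.21 ± 0.07 with a limma adjusted p of 0.122.

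None of the 6 CLE genes passed in the SUB1C line, and by limma 0 of the 6 had an unadjusted p under 0.05. Over all probe sets 4681 of 22746 did, and 6 genes are too few to tell 0 from that share. Their changes ran from -0.08 (CLE21) to 0.13 (CLE44), and that of CLE41 was 0.00 ± 0.07. CLE genes were the family with the smallest median absolute change in this comparison, 0.03, beside 0.14 for RALFL and 0.12 for TET genes and 0.08 over all probe sets.

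Of the 15 TET genes 2 rose in the SUB1C line and 13 did not pass. TET12, a gene known from sperm cells, read 5.19 and 5.12 in WT, 5.07 and 5.15 in SUB1A and 5.54 and 5.47 in SUB1C. The SUB1C arrays were apart from the others, though all 6 values lie a little above the level read as near background. TET12 rose by 0.35 ± 0.07 in the SUB1C line with a limma adjusted p of 0.0236. TET8 rose by 0.31 ± 0.06 with a limma adjusted p of 0.0345. The calls of RALFL22, TET8 and TET12 against WT each ended without any 1 of the WT or SUB1C arrays, with adjusted p up to 0.132, 0.224 and 0.199, while their changes stayed between 0.29 and 0.43. The 13 TET genes that did not pass had changes from -0.03 (TET16) to 0.21 (TET2), and those of TET5, TET6 and TET3 were 0.19 ± 0.07, 0.18 ± 0.07 and 0.12 ± 0.06.

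**Figure D2:**
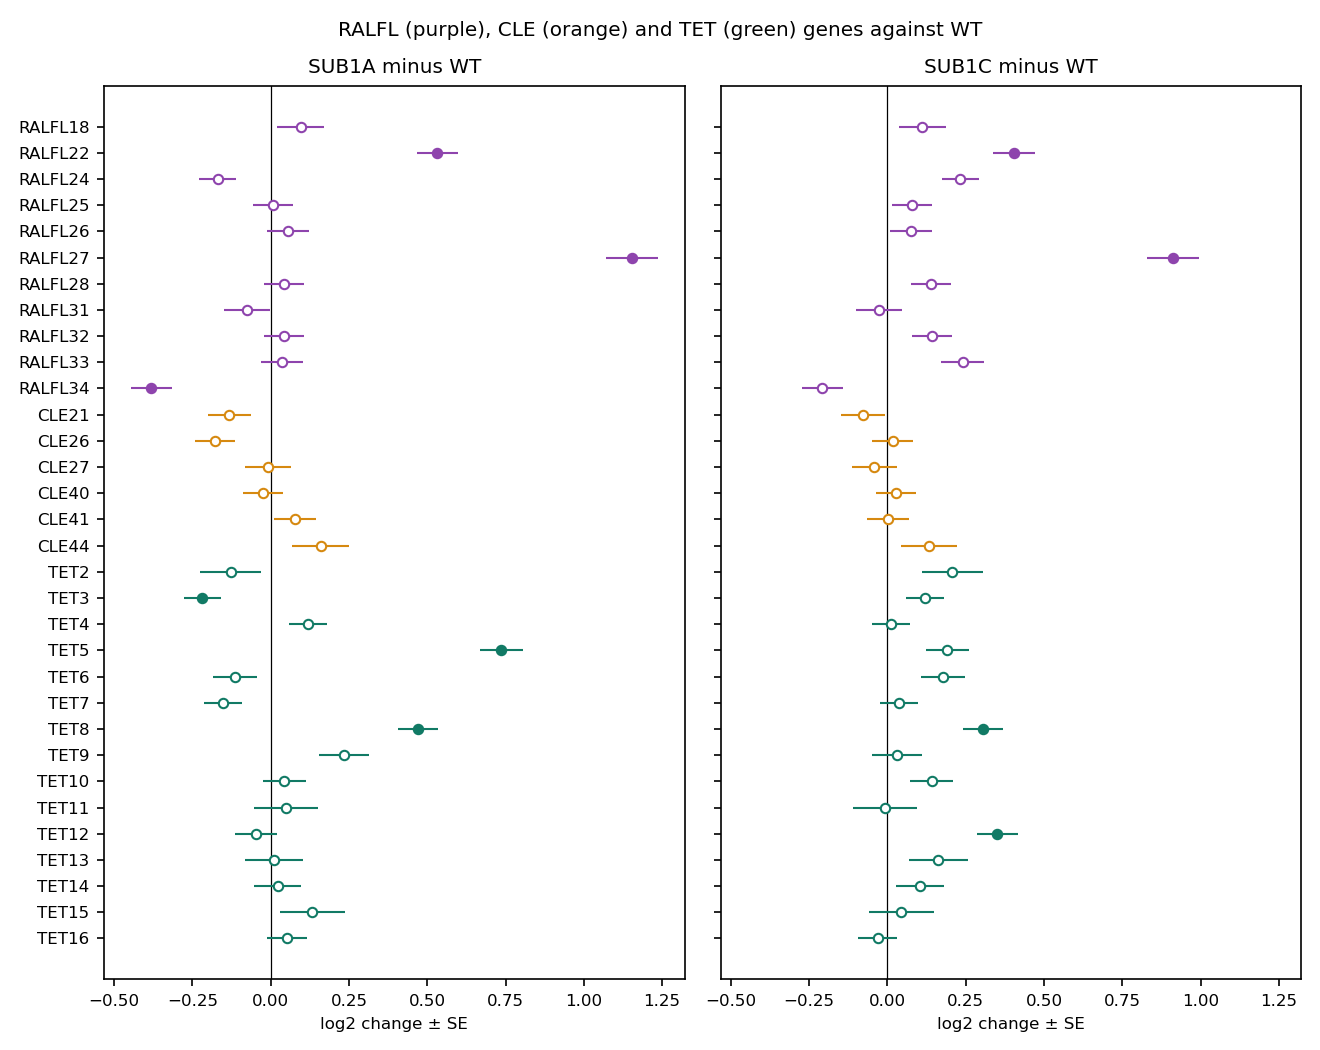
Log2 change ± SE of each of the 32 genes in the SUB1A line (left) and the SUB1C line (right) against WT, with RALFL genes in purple, CLE genes in orange and TET genes in green; filled points passed the test. In the left panel 4 genes passed on the positive side and 2 on the negative, in the right panel 4 passed, all positive, and no CLE gene passed in either.

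The direct comparison of the SUB1A with the SUB1C line asked which genes differ between the transgenic lines, and it does not use the WT arrays for the difference itself. In it 5 of 32 genes passed, 1 higher in the SUB1A line and 4 lower, or 15.6%, beside 12.1% over all probe sets with 5.57% higher and 6.48% lower. By family these were 1 of 11 RALFL, 0 of 6 CLE and 4 of 15 TET genes. The median change of the 32 genes was -0.05, against 0.01 over all probe sets.

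TET5 was higher with SUB1A than with SUB1C by 0.55 ± 0.07, or 1.46-fold, with a limma adjusted p of 0.00181. TET6, its partner in organ growth, was lower in the SUB1A line by 0.29 ± 0.07 with a limma adjusted p of 0.0322. This pair therefore differed between the lines in opposite directions. TET12 was lower in the SUB1A line at -0.40 ± 0.07 (limma adjusted p = 0.00630) and TET3 at -0.34 ± 0.06 (limma adjusted p = 0.00902). The call of TET6 ended without any 1 of the SUB1A or SUB1C arrays, with adjusted p up to 0.175. That of TET3 ended without SUB1A replicate 1 (adjusted p = 0.0634), SUB1C replicate 1 (0.0736) or SUB1C replicate 2 (0.0643), and that of TET12 without SUB1C replicate 1 (0.0628). Without SUB1C replicate 1 the count of 5 became 2, RALFL24 and TET5, and it became 3 without SUB1A replicate 1 or SUB1C replicate 2.

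RALFL24 was the RALFL gene that differed between the lines. It read 9.07 and 9.06 in SUB1A, 9.26 and 9.21 in WT and 9.46 and 9.48 in SUB1C. The SUB1A arrays lay below WT and the SUB1C arrays above it. This order, together with a difference between the lines that passed, was shared by TET3 and TET6, 3 of 32 members, and was seen in 1.52% of all probe sets; the members' share was not tested. RALFL24 was lower in the SUB1A line by 0.40 ± 0.06, 1.32-fold, with a limma adjusted p of 0.00402. The genes that rose in both lines did not pass here. Their differences between the lines were 0.24 ± 0.08 for RALFL27, 0.13 ± 0.07 for RALFL22 and 0.16 ± 0.06 for TET8, with limma adjusted p of 0.103, 0.266 and 0.141, and in each the SUB1A arrays lay above the SUB1C arrays. RALFL34 had a difference of -0.17 ± 0.07, which did not pass. The largest difference that did not pass was that of TET2, -0.33 ± 0.10 with a limma adjusted p of 0.0606, from 8.18 and 8.44 in SUB1A and 8.56 and 8.73 in SUB1C. It passed without SUB1A replicate 2, at -0.47 with an adjusted p of 0.0272, and on all 6 arrays with the replicate number as a block (adjusted p = 0.0316) or with a mean-variance trend (adjusted p = 0.0425). Among the 6 CLE genes 1 had an unadjusted limma p under 0.05 between the lines, again CLE26, at -0.19 ± 0.06 with an adjusted p of 0.0925. Over all probe sets 6003 of 22746 had an unadjusted p under 0.05 between the lines.

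**Figure D3:**
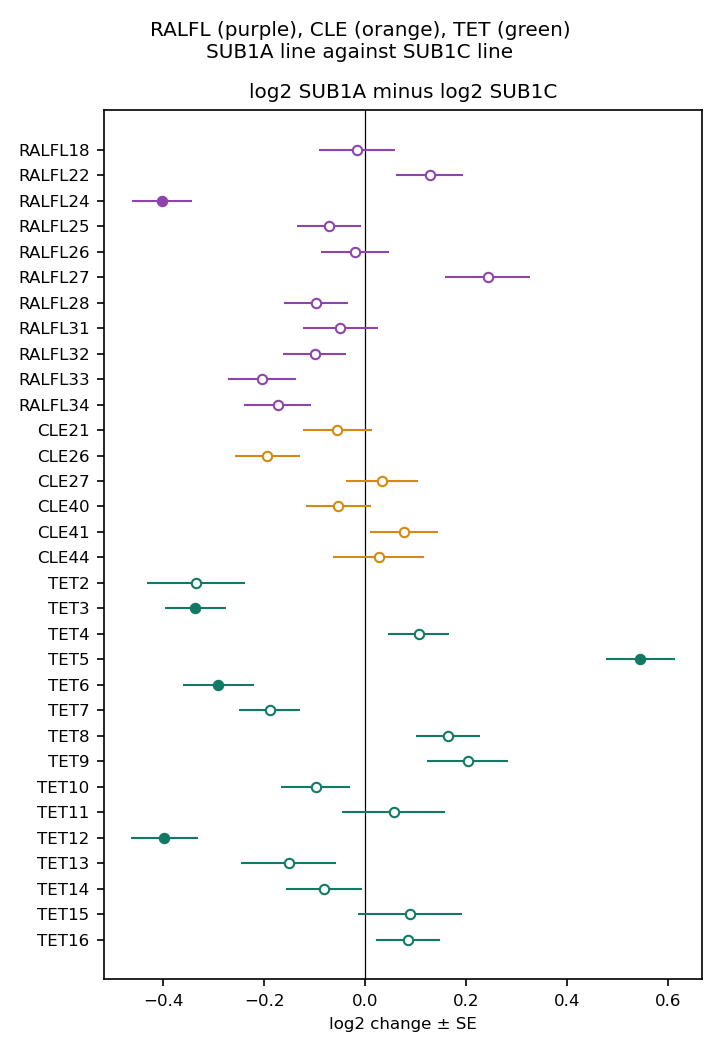
Log2 difference ± SE of the SUB1A minus the SUB1C line for each of the 32 genes, coloured by family, with filled points for genes that passed the test. TET5 stands at 0.55 on the positive side, and RALFL24, TET12, TET3 and TET6 lie between -0.40 and -0.29.

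Genes that lie next to each other were looked at as pairs. TET11 and TET16 are direct neighbours in the RefSeq gene order, and RALFL25 and RALFL26, both known from pollen, are separated by 1 gene. None of the 4 genes passed in any comparison. TET11 stayed between 5.51 and 5.79 on the 6 arrays and TET16 between 4.34 and 4.48. RALFL25 stayed between 4.42 and 4.54 and RALFL26 between 5.46 and 5.62. The remaining tetraspanin genes did not pass in any comparison either. TET10 changed by 0.04 ± 0.07 with SUB1A and 0.14 ± 0.07 with SUB1C, TET4 by 0.12 ± 0.06 and 0.01 ± 0.06, and TET14 by 0.02 ± 0.08 and 0.10 ± 0.08. TET15 changed by 0.13 ± 0.10 and 0.04 ± 0.10. TET13, known from lateral root formation, changed by 0.01 ± 0.09 and 0.16 ± 0.09. It read 5.20 and 4.90 on the SUB1C arrays, the widest pair of replicates among the 32 genes. Of the remaining RALFL genes, RALFL28, RALFL31 and RALFL32 changed by 0.04 ± 0.06, -0.08 ± 0.07 and 0.04 ± 0.06 with SUB1A and by 0.14 ± 0.06, -0.03 ± 0.07 and 0.14 ± 0.06 with SUB1C.

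The receptors and other partners of these peptides were taken from lists. By locus or symbol, 10 of 23 genes were matched for RALF peptides and 9 of 28 for CLE peptides. Among the 9, SOL1 was matched by symbol alone, at a locus other than the listed one. Among RALF partners 1 of 10 rose and 1 fell in the SUB1A line, and 1 rose and 0 fell in the SUB1C line. These are 20% and 10% of the measured partners, beside 20.2% and 4.71% of all probe sets, so the SUB1A count was at the background. The gene that rose with SUB1A was THE1, encoding the receptor kinase THESEUS1, known as a sensor of the RALF34 peptide. THE1 read 8.54 and 8.70 in WT, 9.30 and 9.46 in SUB1A and 8.87 and 8.85 in SUB1C. The SUB1A arrays stood above all others. Its rise was 0.76 ± 0.08 with a limma adjusted p of 0.000451, and its SUB1A level exceeded its SUB1C level by 0.52 ± 0.08 (limma adjusted p = 0.00498). RALFL34, the gene of that peptide, fell in the same line, as given above. Between the lines 1 of 10 RALF partners was higher with SUB1A and 2 were lower, or 30%, beside 12.1% of all probe sets. The 2 lower were AT4G18670 at -0.51 ± 0.09 and AT2G41970 at -0.40 ± 0.08 (limma adjusted p = 0.0104 and 0.0133). Over the alternatives these differences ran from -0.62 to -0.41 and from -0.42 to -0.37.

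FER, encoding the RALF receptor FERONIA, read 11.60 and 11.62 in WT, 11.66 and 11.73 in SUB1A and 11.79 and 11.71 in SUB1C. Its changes of 0.08 ± 0.06 and 0.14 ± 0.06 did not pass, nor did those of S1P, a protease that cuts RALF precursors, at 0.06 ± 0.07 and 0.00 ± 0.07. The pollen receptor genes ANX1 and ANX2 had group means under 5. AT4G18670 fell by 0.46 ± 0.09 in the SUB1A line, with a limma adjusted p of 0.0107, a call that ended without WT replicate 1 or SUB1A replicate 2 (adjusted p up to 0.069). AT2G41970 rose by 0.58 ± 0.08 in the SUB1C line, with a limma adjusted p of 0.00620 that became 0.0715 without SUB1C replicate 1.

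Of the 9 genes matched to the CLE list, 1 fell in each line and 0 rose. That is 11.1%, beside 10.8% of all probe sets lower with SUB1A and 1.87% with SUB1C. In the SUB1A line this was AT3G22760, which fell by 0.27 ± 0.08 with a limma adjusted p of 0.0379. It was matched by the symbol SOL1 alone. Its locus is not that of the listed SOL1, a carboxypeptidase gene of CLE precursor processing. The call is therefore not one of a CLE partner, and no other gene matched to the list passed in the SUB1A line. In the SUB1C line the gene that fell was AT5G45780, by 0.35 ± 0.06 with a limma adjusted p of 0.0206. Both calls ended in several alternatives, with adjusted p up to 0.191 and 0.176. Between the lines 1 of the 9 genes passed, or 11.1%, beside 12.1% of all probe sets. It was AT5G45780, higher with SUB1A by 0.32 ± 0.06 (limma adjusted p = 0.0126). CLV3, the founding peptide gene of the family, read 4.89 to 5.27 over the 6 arrays. The PXY-like receptor genes PXL1 (AT1G08590) and PXL2 (AT4G28650) changed by 0.25 ± 0.10 and 0.10 ± 0.11 with SUB1A and by 0.28 ± 0.10 and 0.31 ± 0.11 with SUB1C, without passing. Of 16 other signalling peptide genes listed, 2 were measured. STOMAGEN, whose peptide promotes stomatal development, read 9.44 and 9.35 in WT, 9.0 and 8.93 in SUB1A and 9.29 and 9.25 in SUB1C, and fell by 0.43 ± 0.06 in the SUB1A line with a limma adjusted p of 0.00249. Between the lines STOMAGEN was lower with SUB1A, at -0.30 ± 0.06 (limma adjusted p = 0.0193). The other gene measured, AT4G28460, did not pass in any comparison.

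**Figure D4:**
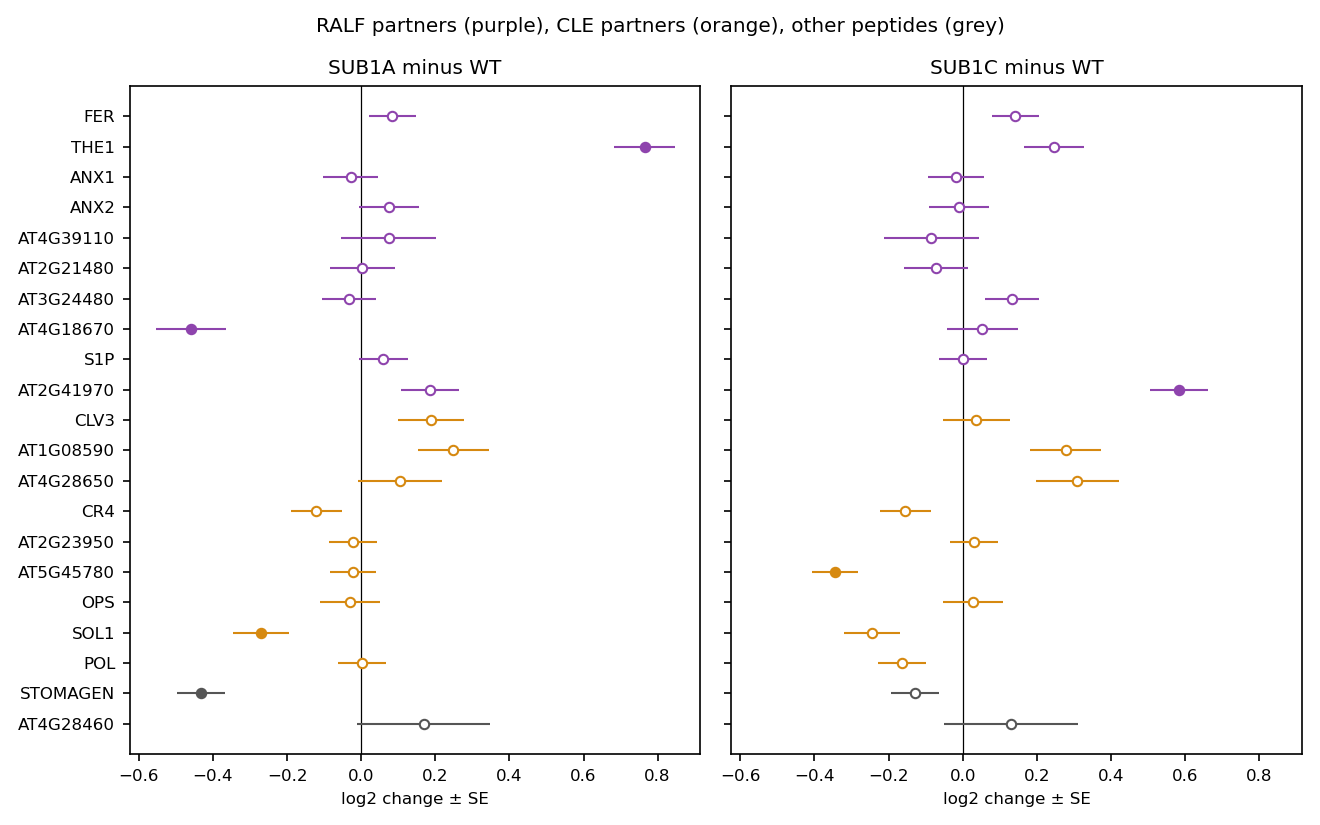
Log2 change ± SE against WT of the measured genes from the lists of RALF partners (purple), CLE partners (orange) and other signalling peptides (grey), in the SUB1A line (left) and the SUB1C line (right); filled points passed the test. THE1 at 0.76 on the left and AT2G41970 at 0.58 on the right are the rises that passed, and FER did not pass in either line. The orange point named SOL1 is AT3G22760, a locus that is not on the list of CLE partners.

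Some markers of root and shoot also changed with the lines. Genes of both organs were present, as the label of a whole seedling implies, with the root gene PYK10 at a WT mean of 14.07 and the leaf gene LHCB4.2 at 14.27. Of 8 root markers 3 were measured, of which EXPA7 and EXPA18, expansin genes of root hairs, rose with SUB1A by 0.29 ± 0.08 and 0.29 ± 0.08 and with SUB1C by 0.78 ± 0.08 and 0.75 ± 0.08, while PYK10 did not pass in either line. Of 8 shoot markers 2 were measured, and LHCB4.2 fell by 0.35 ± 0.07 and the stomatal lineage gene SPCH by 0.60 ± 0.07 in the SUB1A line, with SPCH also falling by 0.33 ± 0.07 in the SUB1C line, where LHCB4.2 changed by -0.14 ± 0.07 without passing. When single arrays were left out, calls ended for EXPA7, EXPA18 and LHCB4.2 with SUB1A (adjusted p up to 0.154, 0.143 and 0.0776) and for SPCH with SUB1C (up to 0.17). On the linear scale the summed value of the root markers was 17370 to 17685 in WT, 18636 to 19327 in SUB1A and 18509 to 19290 in SUB1C. That of the shoot markers was 19071 to 20739 in WT, 14977 to 16301 in SUB1A and 17892 to 18109 in SUB1C. PYK10 made up 96.5% to 98.1% of the root sum and LHCB4.2 98.9% to 99.2% of the shoot sum, so these sums say little of the other markers. The part of these marker changes in the RALFL, TET, THE1 and STOMAGEN changes was not tested. In whole seedlings, more or fewer cells of a type and more or less RNA per cell cannot be told apart. Of 7 pollen markers 4 were measured, with values between 4.64 and 5.76, and none passed in limma. The vascular and seed markers were not analysed here.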

How the data were processed

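The table deposited by the authors gives log2 values per probe set from RMA, which the submitters' processing notes name without a version. It has no detection calls. The 64 control probe sets were left out of its 22810 rows. Probe sets were named from the platform's annotation (13513 with a single gene, 503 with several, 8730 with none), and all 32 members were matched to RefSeq, 30 by gene ID and RALFL22 and CLE21 by symbol.

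Groups came from the sample titles. limma 3.58.1 in R 4.3.3 (lmFit, eBayes, 3 residual and 5.37 prior degrees of freedom) fitted all 6 arrays without a block, since 2 arrays per group give little information on their own. Tests were two-sided, adjusted by Benjamini-Hochberg over 22746 probe sets. Named genes were all members past the threshold, the highest and lowest of each family, members of known function, and list genes past the threshold. Others are given to account for all members. Members and lists were chosen with earlier results of these data known. Replicates are labelled biological, with no further detail on their origin. Deviations of arrays with the same replicate number correlated at -0.01, 0.04 and 0.02, so the numbers were not taken as pairs. The growth protocol gives the medium at 1X and the design text at 0.5X Murashige Skoog strength.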

Additional observations from a re-analysis of the deposited data

Results flagged for a closer look

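In 3 genes the transgenic lines lay on opposite sides of WT, with both SUB1A arrays below and both SUB1C arrays above both WT arrays, and the direct comparison of the lines passed the test in limma. Over all probe sets 1.52% had this order and call. RALFL24 had a SUB1A minus SUB1C difference of -0.40 ± 0.06 (adjusted p = 0.00402), with neither comparison with WT past the threshold. TET3 had a difference of -0.34 ± 0.06 (adjusted p = 0.00902), and its fall against WT passed in the SUB1A line only, while its SUB1C change was 0.12 ± 0.06. TET6 had a difference of -0.29 ± 0.07 (adjusted p = 0.0322), with neither comparison with WT past the threshold. The calls of TET3 and TET6 between the lines, and that of TET3 against WT, ended when single arrays were left out. Over the alternatives the differences between the lines ran from -0.36 to -0.31 for TET3 and from -0.32 to -0.26 for TET6. The call of RALFL24 between the lines was kept. The groups of 2 arrays are too small to look for single arrays that stand apart.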

How the results depend on the processing

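Of 15 member calls over the 3 comparisons, 8 were kept in all 13 alternatives that gave a value for single genes: RALFL22, RALFL27, RALFL34, TET5 and TET8 for SUB1A against WT, RALFL27 for SUB1C against WT, and RALFL24 and TET5 between the lines. No called member changed sign, and 43 of 1233 member values changed sign without passing in either fit. With a mean-variance trend in eBayes, the SUB1C comparison called 4 RALFL genes (RALFL24 and RALFL33 added), and the comparison between the lines called 8 members, 2 of them RALFL (RALFL33, TET2 and TET7 added). At adjusted p under 0.01 the SUB1C comparison called 1 member, 1 RALFL and 0 TET genes, with 296 probe sets in all, against 2344 for SUB1A against WT and 1191 between the lines. Leaving out each array in turn gave, for SUB1C against WT, 1 to 4 members, 1 to 2 RALFL and 0 to 2 TET genes, and 191 to 882 probe sets (1071 on all arrays). Between the lines it gave 2 to 5 members, 1 to 4 TET genes and 1078 to 3026 probe sets (2742 on all arrays), and for SUB1A against WT 5 to 6 members and 2701 to 3961 probe sets (4606 on all arrays). With the replicate number as a block, 5, 4 and 6 members passed in the SUB1A, SUB1C and between-line comparisons, TET3 against WT no longer passing (adjusted p = 0.0513) and TET2 passing between the lines (adjusted p = 0.0316). Fitting the 2 groups compared alone ended the TET3 call against WT (adjusted p = 0.0691). In each comparison, leaving out an array of the group not compared gave the fit of the 2 groups alone. The 13 alternatives therefore hold fewer separate fits. Renewed quantile normalization, median centring, robust moderation and leaving out 3368 dim probe sets, 5 of them members, left the member counts as they were. Averaging a gene's probe sets gives the values reported, as each member has 1. The causes of these differences were not tested. With 2 arrays per group and no detection calls, changes near the lowest levels can be compressed or missed.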
